A study of Mus musculus with 6 samples.

Results

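The genes described here encode receptors of the TREM family, paired immunoglobulin-like receptors (PIR), one Fc receptor and the small adaptor proteins through which such receptors signal. The 10 genes, of 21335 with a symbol on the array, were Trem1, Trem2, Treml1, Treml2, Tyrobp, Hcst, Fcer1g, Pirb, Lilra6 and Fcgr3. They were found by symbol in the platform's gene table, where a probe set counted when 1 of its symbols was that of a member. This gave 12 of the 23410 probe sets that carry a gene symbol: 1 probe set of its own for each of the 10 genes, and 2 that are shared by Pirb, Lilra6, Pira1, Pira2, Gm10693 and Gm15448. The set was chosen by gene family with the log2 differences between the 2 groups of the comparison below already known, Trem1 among the larger falls, so their differences and calls are a description of these arrays and not a test.

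Expression was measured on Affymetrix arrays of total RNA from mouse pre-B cells transformed with BCR-ABL1, a fusion tyrosine kinase that drives a form of acute lymphoblastic leukaemia. In the 3 pMIG-IKZF1 samples the cells carried the retroviral vector pMIG with IKZF1, which encodes Ikaros, a zinc finger regulator of lymphoid development, and in the 3 pMIG samples they carried the empty vector. All 6 samples came from wild-type C57Bl6 mice aged 4 weeks, all cells carried BCR-ABL1, and cells positive for green fluorescent protein were sorted 3 days after transduction. The labels do not say whether the samples of a group were separate cultures or animals, or which species the insert came from. A p-value here reflects the spread between the arrays, part of which may be technical.

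TREM receptors are single-domain immunoglobulin-like proteins. TREM-1, TREM-2 and mouse TREM-3 have short tails without a signalling motif and pair with DAP12, the product of Tyrobp, whose immunoreceptor tyrosine-based activation motif (ITAM) recruits the kinase Syk once phosphorylated. The FcR gamma chain, the product of Fcer1g, serves the PIR-A receptors and the Fc receptor encoded by Fcgr3 in the same way, and DAP10, the product of Hcst, carries a motif that binds phosphoinositide 3-kinase. PIR-B, in contrast, carries inhibitory motifs (ITIMs) that recruit the phosphatase SHP-1, and it is known from mouse B cells and myeloid cells as a receptor for MHC class I molecules.

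Values are log2(intensity + 1) of probe sets. Differences are pMIG-IKZF1 minus pMIG on that scale, and a level is compared only with the level of the same probe set. As a measure of background, 95% of 1194 olfactory and vomeronasal receptor genes had a mean level below 6.18, which is called the background level here. Taken within each group, it was 6.24 on the pMIG-IKZF1 arrays and 6.12 on the pMIG arrays. The common level of 6.18 is used for both, so small rises of dim probe sets may hold part of this offset. The transduced gene, Ikzf1, read 13.09, 13.14 and 13.06 on the pMIG-IKZF1 arrays, against 11.85, 11.78 and 11.98 on the pMIG arrays. Array medians lay between 100.2 and 107 intensity units, and the number of arrays limits the precision of every value. All 12 measured pre-B cell markers had a mean above background in both groups, though Rag2 read below it on array 2 of each group. The 12 had summed intensities of 61289 to 63127 on pMIG-IKZF1 arrays and 60216 to 64373 on pMIG arrays.

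Within this set, the Pira/Pirb group and Tyrobp were higher and Trem1 was lower in pMIG-IKZF1 cells, while Trem2, Treml1, Treml2, Hcst, Fcer1g, Fcgr3 and the probe set of Lilra6 alone did not pass the threshold. In the fit over all probe sets (limma, Benjamini-Hochberg adjusted p under 0.05), 4 of the 12 member probe sets were called higher, 1 was called lower and 7 were not called, where 1.03% of all probe sets were called higher and 1.00% lower. With replicate number as a block 5, Fcgr3 now among them, were called higher and 1 lower, where 3.19% and 3.77% of all probe sets were. Since these values were known when the genes were chosen, nothing is read from either count. The groups did not overlap for 7 member probe sets that were higher and 1 that was lower, beside 14.6% and 13.0% of all probe sets. The Pira/Pirb group, a set of near copies, holds 4 of these 7, and nothing is read from this count either. Of the probe sets called higher in the main fit, all but that of Tyrobp belong to this group. Median differences were 0.37 over the members and 0.03 over all probe sets.

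**Figure D1:**
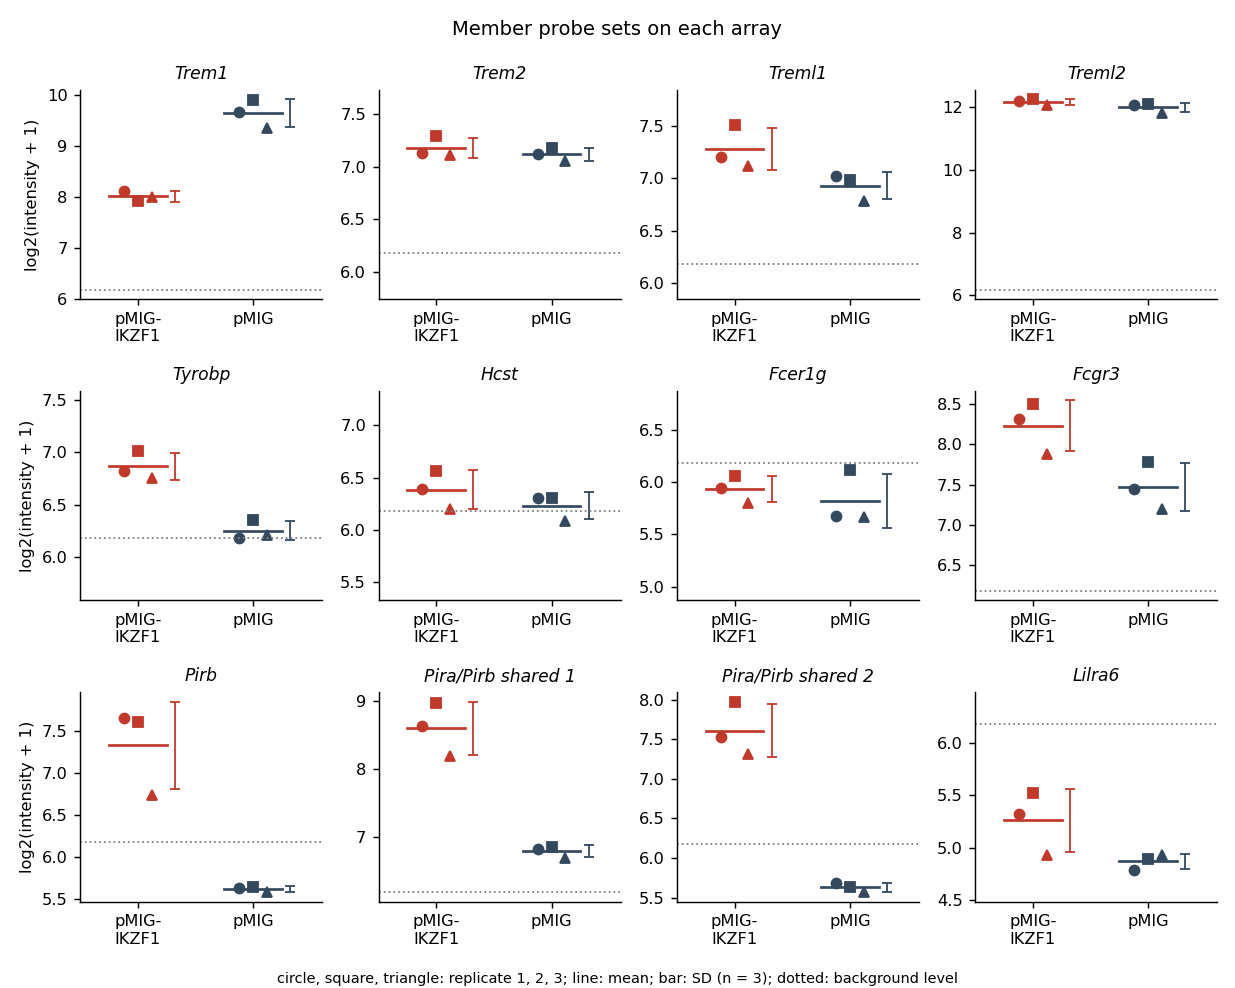
Level of each member probe set, as log2(intensity + 1), on the 3 pMIG-IKZF1 arrays (red) and the 3 pMIG arrays (blue), with the mean, the SD and the background level of 6.18 (dotted). Trem1 lies lower on every pMIG-IKZF1 array, and Pirb and both shared probe sets lie higher; panels differ in their vertical range.

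Trem1, which encodes an activating receptor that amplifies inflammatory responses of neutrophils and monocytes, was the member that fell. Its probe set (10445746) read 8.12, 7.91 and 8.01 on the pMIG-IKZF1 arrays, against 9.67, 9.90 and 9.35 on the pMIG arrays. The groups were separated by more than 1 unit, and all 6 values lay well above background. The mean was 8.01 ± 0.11 in pMIG-IKZF1 cells and 9.64 ± 0.28 in pMIG cells (SD, n = 3 each). The difference of -1.63 ± 0.14 (SE; limma adjusted p = 0.00746) makes the level 3.09-fold lower in pMIG-IKZF1 cells. Arrays of the same replicate number differed by -1.55, -1.99 and -1.34. By size, this difference ranked 54 among all probe sets tested. Without pMIG-IKZF1 1 the adjusted p was 0.0548, and without pMIG 1 it was 0.0708, with differences of -1.68 and -1.61.

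Trem1 stands in a cluster of TREM genes on chromosome 17, in the order Trem1, Trem3, Treml4, Treml2, B430306N03Rik, Trem2 and Treml1 in the RefSeq annotation of GRCm38.p6. Trem3, the gene next to Trem1, encodes an activating receptor of the mouse that also pairs with DAP12. It read 6.02, 6.27 and 6.25 on the pMIG-IKZF1 arrays, against 6.99, 7.13 and 7.04 on the pMIG arrays. The groups did not overlap, and 2 of the 3 pMIG-IKZF1 values lay just above background. Trem3 fell by 0.87 ± 0.09 on the log2 scale (SE; limma adjusted p = 0.0106), with adjusted p of 0.0504 without pMIG-IKZF1 3 and 0.0748 without pMIG 1. The 8 measured genes beside the cluster, 4 on each side, had differences between -0.17 and 0.27. Of these, 0 were called in limma, and 2 of the 8 had an unadjusted p under 0.05, which 19.2% of all probe sets had.

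**Figure D2:**
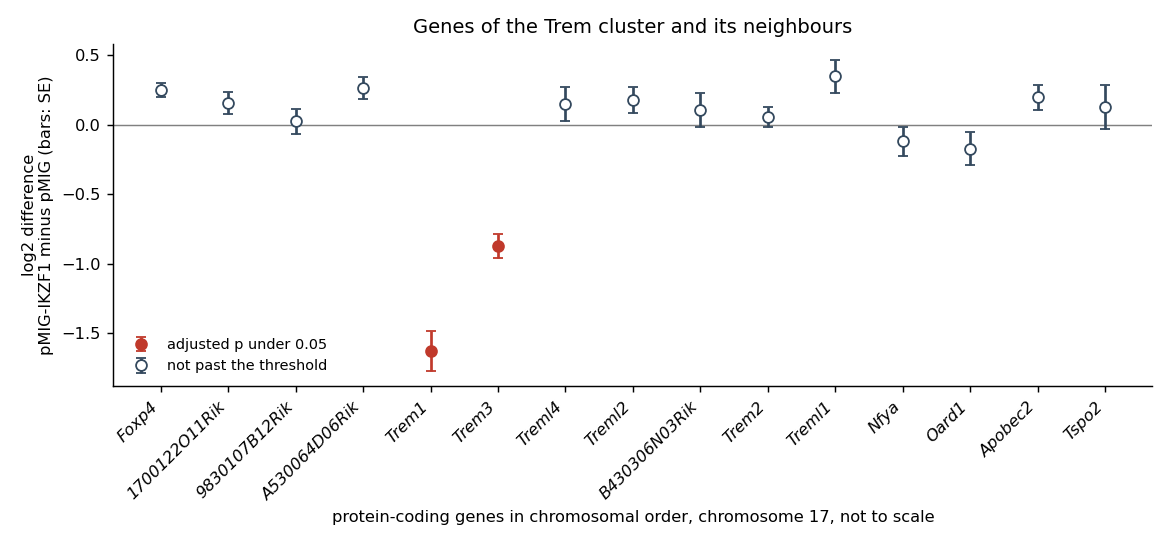
Log2 difference (pMIG-IKZF1 minus pMIG, with SE) of the TREM cluster genes and of the 4 protein-coding genes on either side, in chromosomal order. Trem1 (-1.63) and Trem3 (-0.87), which are neighbours, are the called genes; the others lie between -0.17 and 0.35.

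Of the other TREM genes, Treml2 was far above background. It encodes TLT-2, which in the mouse is found on cells of the B lineage as well as on macrophages and neutrophils. It read 12.19, 12.25 and 12.08 on the pMIG-IKZF1 arrays, against 12.07, 12.10 and 11.82 on the pMIG arrays, a difference of 0.18 ± 0.09 (SE; limma adjusted p = 0.355). The groups overlapped narrowly. Trem2, a lipid-sensing receptor of macrophages and microglia, read 7.13, 7.29 and 7.12 on the pMIG-IKZF1 arrays, against 7.12, 7.18 and 7.06 on the pMIG arrays, a difference of 0.06 ± 0.07 (adjusted p = 0.672 in limma). Its values were nearly the same in both groups. Treml1 encodes TLT-1, a receptor of platelets and megakaryocytes whose tail holds an ITIM. It read 7.21, 7.51 and 7.12 on the pMIG-IKZF1 arrays, against 7.03, 6.99 and 6.78 on the pMIG arrays. Every pMIG-IKZF1 value was the higher, by a mean of 0.35 ± 0.12 (SE), and the probe set did not pass (limma adjusted p = 0.201, and 0.0678 with replicate number as a block).

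The Pira/Pirb group held the largest rises among the members. Its genes lie side by side on chromosome 7, in the order Pirb, Pira1, Gm15448, Pira2, Gm14548 and Lilra6 in the RefSeq annotation. They are near copies of each other, and the deposited values do not show which copy a probe set reads. The promoter windows of Pirb, Pira1 and Lilra6 below show how alike these stretches are, with the window of Trem1 for contrast. Transcribed sequences were not compared. Each window runs from 250 bases before to 50 bases after the transcription start in RefSeq (GRCm38.p6) and is written 5′ to 3′ on the strand of the gene. Capitals mark GAGGAA, the core of many sites of the Ets factor PU.1, or its reverse complement.
Pirb (chr7:3720333-3720632, minus strand): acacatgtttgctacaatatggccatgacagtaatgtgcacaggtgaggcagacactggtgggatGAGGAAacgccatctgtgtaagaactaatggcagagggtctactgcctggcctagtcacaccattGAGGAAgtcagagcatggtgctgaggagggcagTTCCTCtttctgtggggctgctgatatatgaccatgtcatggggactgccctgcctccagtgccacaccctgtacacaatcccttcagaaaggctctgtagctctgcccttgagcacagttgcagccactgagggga
Pira1 (chr7:3739868-3740167, minus strand): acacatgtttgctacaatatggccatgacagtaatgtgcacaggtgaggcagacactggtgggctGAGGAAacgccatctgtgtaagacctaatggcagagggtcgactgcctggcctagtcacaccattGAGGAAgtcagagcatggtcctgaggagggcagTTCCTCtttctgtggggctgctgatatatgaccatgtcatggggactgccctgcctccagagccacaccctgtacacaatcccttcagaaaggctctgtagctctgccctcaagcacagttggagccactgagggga
Lilra6 (chr7:3915452-3915751, minus strand): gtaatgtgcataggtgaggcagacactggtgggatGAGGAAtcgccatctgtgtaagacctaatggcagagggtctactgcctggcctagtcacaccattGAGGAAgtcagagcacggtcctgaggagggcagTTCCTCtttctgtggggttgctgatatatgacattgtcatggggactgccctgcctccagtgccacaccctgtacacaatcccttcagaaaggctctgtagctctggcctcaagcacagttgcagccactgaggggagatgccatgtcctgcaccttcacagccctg
Trem1 (chr17:48232489-48232788, plus strand): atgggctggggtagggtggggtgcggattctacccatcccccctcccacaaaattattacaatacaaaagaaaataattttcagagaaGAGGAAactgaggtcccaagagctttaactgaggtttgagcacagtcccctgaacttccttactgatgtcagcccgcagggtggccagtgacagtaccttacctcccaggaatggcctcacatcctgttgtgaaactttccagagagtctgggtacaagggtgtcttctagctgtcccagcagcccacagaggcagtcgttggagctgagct

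Where the windows overlap, Pirb was identical to Pira1 at 292 of 300 aligned positions (97.3%) and to Lilra6 at 259 of 270 (95.9%), gaps counted as differences. The Lilra6 window is displaced because its annotated start lies further downstream. All of Pirb, Pira1 and Lilra6 held 3 matches of GAGGAA, in the same order and spacing, and 0.685% of 32851 windows of this length held 3 or more. Trem1 held 1 match, 162 bases before its start, where 28.3% of all windows held at least 1. TGGGAA, the core of many Ikaros sites, was searched on both strands as well. It was in none of the 4 windows shown, and 25.6% of all windows held it. Of the 10 members, 8 had a window in the table, of which 1 held TGGGAA (Hcst) and 5 held GAGGAA. Treml2 and Tyrobp were the other members. These matches describe letters in a window, not binding.

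Pirb encodes the inhibitory member of the group. Its own probe set (10559446) read 7.65, 7.61 and 6.73 on the pMIG-IKZF1 arrays, against 5.63, 5.64 and 5.58 on the pMIG arrays. The pMIG values were tightly grouped within the background range, and pMIG-IKZF1 3 lay well below the other 2 pMIG-IKZF1 arrays. The difference was 1.72 ± 0.24 (SE; limma adjusted p = 0.0292), with a mean of 7.33 ± 0.52 in pMIG-IKZF1 cells and 5.62 ± 0.03 in pMIG cells (SD, n = 3 each). As measured this was 3.29-fold, and set against the background level in place of the pMIG values it was at least 2.22-fold higher. Without pMIG-IKZF1 3 the adjusted p was 0.00151 and the difference 2.02. Pirb did not pass without pMIG-IKZF1 1 or 2 (adjusted p = 0.121 and 0.103) or without pMIG 1 or 2 (adjusted p = 0.157 and 0.0776).

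Both probe sets shared by 6 symbols rose with it. The first (10559454) read 8.63, 8.97 and 8.19 on the pMIG-IKZF1 arrays, against 6.81, 6.85 and 6.69 on the pMIG arrays, so that the groups lay more than 1 unit apart. Its difference was 1.81 ± 0.19 (SE; limma adjusted p = 0.0121), or 3.51-fold, and here the pMIG values were above background. The second (10559467) read 7.53, 7.97 and 7.32 on the pMIG-IKZF1 arrays, against 5.68, 5.63 and 5.57 on the pMIG arrays. It differed by 1.98 ± 0.16 (SE; limma adjusted p = 0.00679), and was at least 2.69-fold higher when set against the background level. Without pMIG-IKZF1 1 the adjusted p of the first and second was 0.0844 and 0.0533, and without pMIG 1 it was 0.0874 and 0.0563. Lilra6, an activating PIR-A type gene, has a probe set of its own (10559478) that read 5.33, 5.53 and 4.93 on the pMIG-IKZF1 arrays, against 4.79, 4.89 and 4.93 on the pMIG arrays. All 6 values lay within the background range. The difference of 0.39 ± 0.15 (SE) did not pass (limma adjusted p = 0.233). As the genes are near copies and 2 of the 4 probe sets carry the same 6 symbols, the 4 are not counted as separate pieces of evidence; their probe sequences were not compared. The 7 measured genes beside the group had differences between -0.33 and 0.34, and 0 of them were called in limma, with an unadjusted p under 0.05 for 4 of the 7 (19.2% of all probe sets). With the replicate block 1 of them was called (Mboat7, -0.33, limma adjusted p = 0.0484), where 3.77% of all probe sets were called lower.

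**Figure D3:**
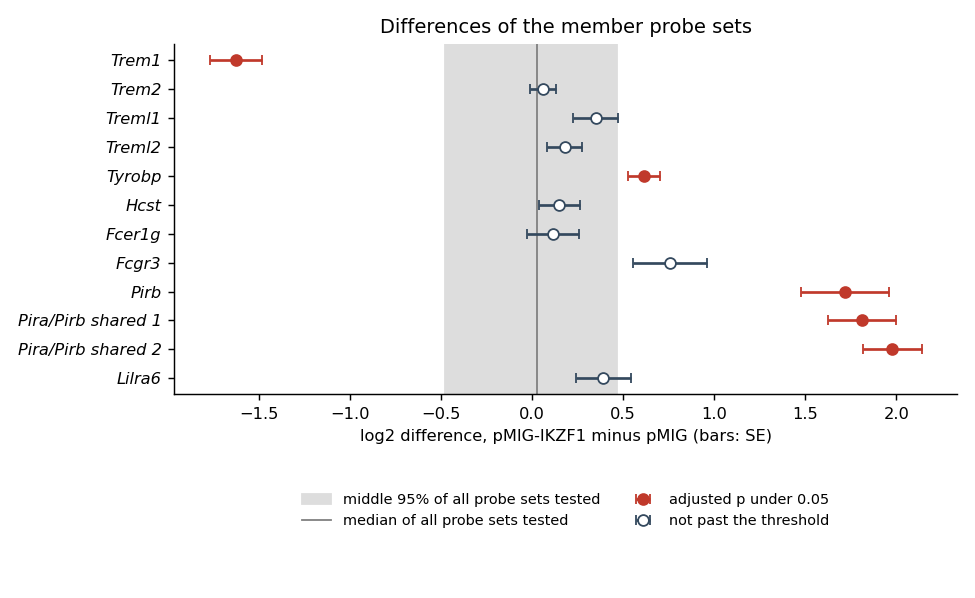
Log2 difference (pMIG-IKZF1 minus pMIG, with SE) of each member probe set, over the middle 95% of all probe sets tested, from -0.48 to 0.47 (grey), and their median of 0.03 (line). Filled points passed an adjusted p of 0.05 in limma: Trem1 on the lower side, and Tyrobp, Pirb and both shared probe sets on the upper side.

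Among the adaptor genes, Tyrobp was the one that passed. It read 6.82, 7.01 and 6.76 on the pMIG-IKZF1 arrays, against 6.19, 6.35 and 6.21 on the pMIG arrays. The groups did not overlap, and the pMIG values sat just above the background level. Tyrobp rose by 0.62 ± 0.09 (SE; limma adjusted p = 0.0294), or 1.53-fold, and the arrays of the same replicate number differed by 0.64, 0.66 and 0.55. It passed only with all 6 arrays or without pMIG 3 (adjusted p = 0.0326), and leaving out any of the other 5 arrays gave adjusted p between 0.0576 and 0.164. Hcst, the adjoining gene on chromosome 7, is read from the opposite strand. It read 6.39, 6.57 and 6.20 on the pMIG-IKZF1 arrays, against 6.30, 6.31 and 6.09 on the pMIG arrays. The groups overlapped at a level near background, and the difference was 0.15 ± 0.11 (SE; limma adjusted p = 0.496). Fcer1g stayed within the background range in both groups, at 5.95, 6.05 and 5.80 on the pMIG-IKZF1 arrays, against 5.67, 6.12 and 5.66 on the pMIG arrays. Its difference was 0.11 ± 0.14 (SE; limma adjusted p = 0.676).

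The 8 measured genes beside Tyrobp and Hcst, 4 on each side, had differences between -0.05 and 0.42. Of these 0 were called in limma, and 2 of the 8 had an unadjusted p under 0.05, where 19.2% of all probe sets did. The upper end was Nfkbid, the gene next to Hcst, which encodes an atypical inhibitor of NF-kappaB. It read 8.56, 8.61 and 8.37 on the pMIG-IKZF1 arrays, against 8.29, 8.02 and 7.96 on the pMIG arrays. The groups did not overlap, and the difference of 0.42 ± 0.11 (SE) did not pass without the block (limma adjusted p = 0.116) and passed with it (adjusted p = 0.0435).

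Fcgr3 encodes the low-affinity activating receptor for immunoglobulin G that needs the FcR gamma chain at the cell surface. It read 8.31, 8.50 and 7.88 on the pMIG-IKZF1 arrays, against 7.45, 7.79 and 7.19 on the pMIG arrays. In both groups replicate 2 was the highest and replicate 3 the lowest, and the groups were set apart by a narrow margin. The difference of 0.76 ± 0.20 (SE) did not pass (limma adjusted p = 0.127), but did with replicate number as a block (adjusted p = 0.0104), as the 3 same-numbered pairs differed by 0.86, 0.71 and 0.69. Fcgr2b, a neighbour of Fcgr3 that encodes the inhibitory Fc receptor of B cells, had a difference of 0.48 ± 0.15 (SE; limma adjusted p = 0.17, and 0.0454 with the block). The 6 measured genes that lie between Fcgr3 and Fcer1g had differences between -0.09 and 0.09. The 6 measured genes outside them, Fcgr2b included, had differences between -0.10 and 1.15, with 0 called in limma and an unadjusted p under 0.05 for 2 (Fcgr2b and Fcrla), beside 19.2% of all probe sets. Fcrla, which encodes an intracellular Fc receptor-like protein of B cells, had a larger difference than Fcgr3. It read 11.65, 11.79 and 11.61 on the pMIG-IKZF1 arrays, against 10.94, 11.19 and 9.48 on the pMIG arrays. The groups did not overlap, and pMIG 3 lay far below the other pMIG arrays. The difference of 1.15 ± 0.43 (SE) did not pass (limma adjusted p = 0.223, and 0.0885 with the block), and without pMIG 3 it was 0.62 and passed (adjusted p = 0.0308).

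The order of the arrays within a group was much the same across the members. Array pMIG-IKZF1 2 was the highest of its group for 10 of the 12 member probe sets, and pMIG-IKZF1 3 the lowest for 11. Array pMIG 2 was the highest of its group for 9 and pMIG 3 the lowest for 10. Over all probe sets these arrays were highest or lowest in 47.6%, 33.6%, 38.5% and 36.7%. Replicate 2 thus tended to be high and replicate 3 low in both groups, while Trem1 went the same way in pMIG cells and had its lowest pMIG-IKZF1 value on array 2. The Pira/Pirb group, a set of near copies, enters this count with 4 probe sets.

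The genes most like the members over the 6 arrays were sought by Pearson correlation among 13062 probe sets of 1 symbol above background. Unnamed gene models, small RNAs, and immunoglobulin and T cell receptor segments were left out of this pool. The search is a description with n = 6 arrays that all belong to the same 2 groups. For Trem1 these were Sars, the cytosolic seryl-tRNA synthetase gene (r = 0.997), Bivm and Stard6 (r = 0.996 each). Sars fell by 0.74 on the log2 scale, Bivm by 1.09 and Stard6 by 1.12 (limma adjusted p = 0.00983, 0.0205 and 0.0116). None of the 3 passed without pMIG-IKZF1 1, pMIG-IKZF1 3 or pMIG 1 (adjusted p from 0.0571 to 0.13), nor Bivm without pMIG-IKZF1 2 (0.0896). For Tyrobp they were Ifngr2, a chain of the interferon gamma receptor, the kinase gene Dyrk1b and Ccm2 (r = 0.999, 0.999 and 0.998), with rises of 0.52, 0.62 and 0.50. These 3 passed with 1 array left out only where that was pMIG 3 (adjusted p from 0.0593 to 0.177 without any other), and Dyrk1b did not pass when all probe sets of the table were tested (0.0529). For Treml2 they were Ccpg1, Tcirg1 and Rasa3 (r = 0.996 each), and for Hcst Trp53rka, Spsb2 and Loxhd1 (r = 0.989, 0.983 and 0.981), with limma adjusted p between 0.351 and 0.633 for these 6. Fcer1g, the fifth gene chosen for this, was not above background and was not compared, and the search was not run for the other members.

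Other receptors that pair with these adaptors were mostly at background. Of 33 listed genes 28 were measured: 0 rose, 1 fell (Trem3) and 27 did not pass in limma, with a median difference of 0.05. Over all probe sets 1.03% were called higher and 1.00% lower. An unadjusted p under 0.05 was found for 4 of the 28, beside 19.2% of all probe sets. Only 5 of the 28 lay above background on average, and 1 of these, Cd247, encodes an ITAM signalling chain and not a receptor. Siglec15, a sialic acid receptor that pairs with DAP12, had means of 7.84 in pMIG-IKZF1 cells and 7.38 in pMIG cells, a difference of 0.46 (limma adjusted p = 0.0866, and 0.0281 with the block). Tarm1 and Oscar, receptors that use the FcR gamma chain, differed by 0.32 and 0.27 and Cd300c2 by 0.19, with adjusted p between 0.168 and 0.267.

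Downstream of the ITAM, the signalling genes were mostly well expressed, and 0 of 31 measured genes passed in limma. Of these 29 lay above background on average, 18 had a positive difference and the median was 0.10; over all probe sets 13303 of 23410 had a positive difference. An unadjusted p under 0.05 was found for 8 of the 31, and for 19.2% of all probe sets. After adjustment 1.03% of all probe sets were called higher and 1.00% lower. Syk, the kinase that binds the phosphorylated ITAM, had a mean level of 11.99 in pMIG-IKZF1 cells and 11.67 in pMIG cells, a difference of 0.32 ± 0.06 (SE; limma adjusted p = 0.0683). Prkcd, which encodes protein kinase C delta, differed by 0.29 (adjusted p = 0.0527), the ubiquitin ligase gene Cblb by 0.36 (0.0734), the phosphoinositide 3-kinase gene Pik3cd by 0.22 (0.0962) and Dok3, an adaptor that dampens receptor signalling in B cells, by 0.90 (0.0966). With replicate number as a block 4 genes of the list were higher and 0 lower, where 3.19% and 3.77% of all probe sets were. The 4 were Syk, Cblb, Dok3 and Vav2, with limma adjusted p of 0.0476, 0.034, 0.0265 and 0.0338. Vav2, a guanine nucleotide exchange factor gene, lies outside the rule for named genes and is given to complete that count.

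Of 21 measured ITIM receptors and phosphatases, 0 rose, 1 fell and 20 did not pass in limma, with a median difference of 0.07. The shares called over all probe sets were 1.03% higher and 1.00% lower. Of the 21, 5 had an unadjusted p under 0.05, which 19.2% of all probe sets had. The one that fell was Milr1, which encodes the inhibitory receptor Allergin-1. It read 10.29, 10.18 and 10.37 on the pMIG-IKZF1 arrays, against 10.77, 10.71 and 10.88 on the pMIG arrays, a difference of -0.51 ± 0.08 (SE; limma adjusted p = 0.0343). The groups did not overlap, but Milr1 did not pass without any 1 of pMIG-IKZF1 1, 2 or 3 or pMIG 1 or 2 (adjusted p from 0.0692 to 0.166). Siglecg, an inhibitory sialic acid receptor of B cells, differed by 0.70 (adjusted p = 0.0854, and 0.0321 with the block), Pecam1 by 0.36 (0.157) and Pilra by -0.32 (0.21). With the block 2 genes of the list, Siglecg and Fcgr2b, were higher and 1, Milr1, was lower, where 3.19% and 3.77% of all probe sets were.

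Of 11 measured ligands and sheddases, 0 passed in limma, where 1.03% of all probe sets were called higher and 1.00% lower. The median difference of the list was 0.01. An unadjusted p under 0.05 was found for 2 of the 11, beside 19.2% of all probe sets. Raet1d and H60b encode ligands of NKG2D, the receptor that DAP10 serves, and had differences of -1.04 and -0.42 (adjusted p = 0.185 and 0.308). Both were lower with the replicate block (limma adjusted p = 0.0333 and 0.0396), as were 3.77% of all probe sets. H60b lay above background on 2 pMIG arrays and 0 pMIG-IKZF1 arrays. Apoe, a ligand of TREM-2, differed by 0.26 (adjusted p = 0.199), Mag, a ligand of PIR-B, by 0.19 (adjusted p = 0.332) and Pglyrp1, a ligand of TREM-1, by 0.10 (adjusted p = 0.484).

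**Figure D4:**
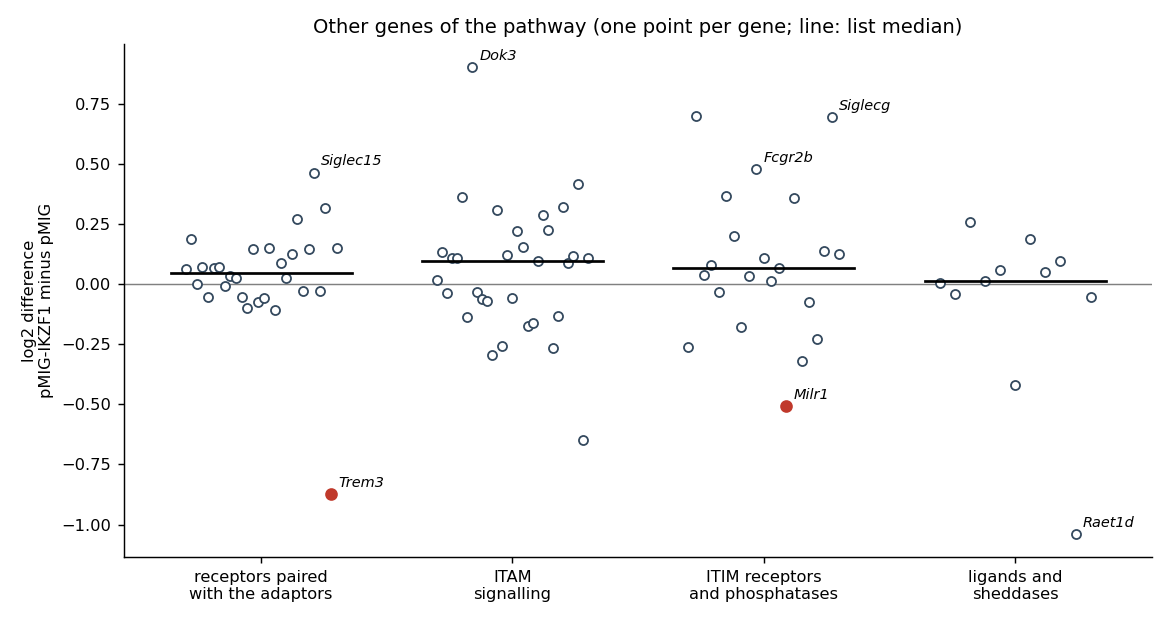
Log2 difference (pMIG-IKZF1 minus pMIG) of each measured gene of the 4 pathway lists, 1 point per gene, with the list median (line) and filled points for an adjusted p under 0.05 in limma. Trem3 (-0.87) and Milr1 (-0.51) are the called genes, and the medians lie between 0.01 and 0.10.

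Most members are best known from myeloid, natural killer, platelet or mast cells, so markers of these cells were read beside them. In a sorted pool, a different share of such cells and a different amount of RNA per cell cannot be told apart. Markers of each list are counted as above background by their group mean. Of 10 measured monocyte and macrophage markers, 3 lay above background in pMIG-IKZF1 cells and 4 in pMIG cells, led by Cd68, Mrc1 and Cx3cr1. Their summed intensity was 741 to 804 on pMIG-IKZF1 arrays and 785 to 831 on pMIG arrays. Lyz2, the lysozyme gene of monocytes, macrophages and granulocytes, made the difference between 3 and 4. It read 5.769, 6.085 and 6.002 on the pMIG-IKZF1 arrays, against 6.419, 6.127 and 6.724 on the pMIG arrays. The groups did not overlap, and it lay above background on 2 pMIG arrays and 0 pMIG-IKZF1 arrays. Its difference of -0.47 ± 0.16 (SE) did not pass (limma adjusted p = 0.198, and 0.112 with the block). Of the 10 markers, 6 had a positive and 4 a negative difference. Without overlap of the groups 1 was higher and 1 lower, beside 14.6% and 13.0% of all probe sets. The higher one was Cx3cr1, which lay above background on every array. Of 12 granulocyte markers 2 lay above background in either group, with sums of 604 to 691 on pMIG-IKZF1 arrays and 610 to 657 on pMIG arrays. Natural killer markers (1 of 10 above background, Prf1) summed to 418 to 445 on pMIG-IKZF1 arrays and 406 to 416 on pMIG arrays. These sums did not overlap. Without Nkg7, the marker with the largest difference, the other 9 summed to 378.7, 389.9 and 381.0 on the pMIG-IKZF1 arrays. On the pMIG arrays these 9 summed to 365.3, 373.2 and 375.2, again without overlap. Of the 10 natural killer markers 3 were higher without overlap of the groups and 1 lower, beside 14.6% and 13.0% of all probe sets. Mast cell and basophil markers (2 of 8 above background) summed to 406 to 449 on pMIG-IKZF1 arrays and 391 to 434 on pMIG arrays. The T cell list (2 of 8 above background in pMIG-IKZF1 cells and 1 in pMIG cells) summed to 454 to 560 on pMIG-IKZF1 arrays and 416 to 429 on pMIG arrays. Cd3e had the largest difference in it (0.39, limma adjusted p = 0.206). Without Cd3e the other 7 markers summed to 316.8, 359.4 and 315.4 on the pMIG-IKZF1 arrays, against 295.3, 302.9 and 298.1 on the pMIG arrays, which do not overlap. Of the 8 T cell markers 4 were higher without overlap of the groups and 0 lower, beside 14.6% and 13.0% of all probe sets. Megakaryocyte and platelet markers (5 of 7 above background in pMIG-IKZF1 cells and 4 in pMIG cells) summed to 863 to 1017 on pMIG-IKZF1 arrays and 538 to 690 on pMIG arrays. Itgb3 alone set these sums apart: without it the other 6 markers summed to 445.2, 497.6 and 488.7 on the pMIG-IKZF1 arrays, against 440.0, 476.0 and 454.8 on the pMIG arrays, which overlap. For dendritic cells (3 of 8 above background in either group) the sums were 776 to 889 on pMIG-IKZF1 arrays and 614 to 920 on pMIG arrays. Intensities include background, so 0 markers read 0. The part of these cells in the members' differences was not tested.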

How the data were processed

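Total RNA of 3 pMIG-IKZF1 and 3 pMIG samples was hybridised to Affymetrix arrays. The deposited table holds linear probe set intensities (11.1 to 23523), and the submitters' processing notes name RMA, without version or parameters. RMA makes array distributions alike and can reduce shifts common to most genes, and remaining background signal understates fold changes of dim genes.

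From these, log2(intensity + 1) was computed. Of 35421 probe sets, 21789 have 1 symbol in the platform's gene table, 1621 several and 12011 none. The 23410 with a symbol were fitted with limma 3.58.1 in R 4.3.3 (group as the only term, 2-sided, Benjamini-Hochberg over all of them); shared probe sets were kept because members have them. A listed gene was read by its brightest probe set of 1 symbol. Not all listed genes matched, and the others were not analysed here. The fit was also run on simulated data with known changes, with noise drawn independently for each array and probe set. That noise lacks the shared deviations of same-numbered arrays, so no conclusion about the calls is drawn from it. An exact permutation test of 3 against 3 cannot go below 0.1 and was not used.

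Members and lists were chosen with earlier results of these data known. Named genes were all members, Ikzf1, from each pathway list up to 5 (called genes by size, then smallest p), the 3 brightest of each marker list, and the 3 genes most alike to Trem1, Treml2, Tyrobp or Hcst; Lyz2 was added after its values were seen, and others are stated as such or stand as neighbours of a member. Same-numbered arrays deviated together from their group means (r = 0.23, 0.60 and 0.66; arrays of different number -0.68 to 0.11). Every same-numbered pair was above the limit of 0.1 used here to take numbers as pairs. So was pMIG-IKZF1 2 with pMIG 1, at 0.11. Deviations from a group's own mean depend on each other, so the r of like and unlike numbers are linked. The numbers come from the titles, which do not say what they mark. The main fit leaves this pairing out. A block for replicate number was run as an alternative, and is given where it changes a call.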

Additional observations from a re-analysis of the deposited data

How the results depend on the processing

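The count over all probe sets was 475 and became 1629 with the replicate block; leaving out 1 array gave 40 (without pMIG 1) to 1003 (without pMIG 3). Member calls, 5 in the main setting, were 0 to 5 with 1 array left out: 0 without pMIG-IKZF1 1 or pMIG 1, and 3 without pMIG-IKZF1 2 or pMIG 2. They were 3 of 10 where shared probe sets were left out, a setting that tests fewer member probe sets. No difference of the 12 member probe sets changed its sign under the 14 alternatives, where a value existed. Of the 46 other genes given with values, 3 did with 1 array left out: Rag1 ranged from -0.0108 (without pMIG 2) to 1.58, Rag2 from -0.90 to 0.81 (without pMIG 3, and above 0 without pMIG-IKZF1 2 too) and Tubb1 from -0.0183 (without pMIG 1, and below 0 without pMIG-IKZF1 2 too) to 0.11. Tubb1 was also at -0.0050 with arrays centred on their medians. Dim members had none under the filter on background.

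For receptors paired with the adaptors, 1 call became 2 with the block and 0 to 1 with an array left out. For ITAM signalling, 0 became 4 with the block, 1 with a pseudocount of 16, 2 after quantile normalization, 1 with an intensity trend, and 0 to 3 with an array left out. For ITIM receptors and phosphatases, 1 became 3 with the block, 0 when all probe sets of the table were tested, and 0 to 3 with an array left out. For ligands and sheddases, 0 became 2 with the block and was 0 with any array left out. Among these 46 genes and the members, the block changed no call beyond those given with it. The cause of these changes was not tested. Signal over background limits Fcer1g, Lilra6, Hcst and the pMIG levels of Pirb, Tyrobp and the second shared probe set (10559467). It also limits Oscar, Pilra and Mag, which lay above background on 0 arrays of either group, and the pMIG-IKZF1 levels of H60b and Trem3.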

Other observations

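For genes of V(D)J recombination in the pre-B marker list, the range between arrays of a group exceeded the difference between the groups. Rag1, which encodes a subunit of the recombinase, read 8.83, 8.04 and 9.55 on the pMIG-IKZF1 arrays, against 7.93, 6.52 and 9.70 on the pMIG arrays. Rag2, the other subunit, read 7.15, 6.04 and 7.89 on the pMIG-IKZF1 arrays, against 6.91, 5.53 and 8.95 on the pMIG arrays. Dntt, which encodes terminal deoxynucleotidyl transferase, read 8.15, 7.32 and 8.37 on the pMIG-IKZF1 arrays, against 8.63, 7.66 and 9.39 on the pMIG arrays. In both groups replicate 2 was the lowest and replicate 3 the highest for all 3 genes, the reverse of the order that most of the member probe sets had. None of the 3 passed in limma (adjusted p = 0.631, 0.962 and 0.503). Vpreb2, a surrogate light chain gene, had means of 9.95 in pMIG-IKZF1 cells and 10.33 in pMIG cells (adjusted p = 0.11 in limma, and 0.0314 with the replicate block).

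Itgb3, the integrin beta 3 gene of the megakaryocyte and platelet list, read 8.98, 9.02 and 8.55 on the pMIG-IKZF1 arrays, against 7.26, 7.75 and 6.39 on the pMIG arrays. The difference was 1.72 ± 0.34 (SE; limma adjusted p = 0.0638, 0.0123 with the replicate block, and 0.0215 without pMIG 3). Its partner Itga2b differed by 0.15 (adjusted p = 0.264), and Tubb1 of the same list by 0.04 (adjusted p = 0.832).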
